A study of Mus musculus with 27 samples.

Results

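Hepatocyte Kdm5b knockout (HepKO) was compared with control livers in female mice fed a Western diet and given alcohol to drink (WDA), using whole-liver RNA sequencing. Of the 27 libraries of the series, 6 belonged to this comparison and were chosen by their treatment labels, 3 from HepKO mice (numbered 13, 14 and 15) and 3 from WT mice (5, 6 and 7). Every mouse was female and Kdm5b fl/fl, so the WT group carried the floxed allele as well. HepKO mice received AAV8-TBG-Cre, a liver-tropic virus in which the hepatocyte-directed thyroxine-binding globulin promoter drives Cre recombinase, and WT mice received AAV8-control, a vector whose promoter the labels do not give. The labels give 8 weeks of WDA for both groups, no age, and 1 liver per library. The same 3 WT mice are also the controls of the CMV-Cre KO females of the series, and no male mice received TBG-Cre. The question was which liver transcripts differ when Kdm5b is deleted in hepatocytes while alcohol feeding continues. In whole liver, fewer cells of a type and less RNA per cell cannot be told apart.

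KDM5B removes methyl groups from lysine 4 of histone H3, a mark found at active promoters, and is generally described as a transcriptional repressor. Hepatocytes make bile acids, plasma proteins and lipoproteins, store fat in lipid droplets and answer hormones such as glucocorticoids, growth hormone and insulin through transcription. In livers exposed to a fatty diet and alcohol, resident macrophages (Kupffer cells), recruited macrophages and collagen-producing stellate cells respond as well, so that a whole-liver library mixes all of these.

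Depth was even, with 16570678 to 18258368 assigned counts per library. WT mouse 7 stood apart from the other 5 libraries before any comparison was made. Its log2 levels correlated with those of any other library at no more than 0.929 (Pearson's r across genes), whereas the lowest r among the HepKO mice was 0.985 and that between WT mice 5 and 6 was 0.988. The first principal component, with 62.3% of the variance, placed it at 79.3 and the other libraries between -21.5 and -9.2. Markers of scar-associated macrophages summed to 1838 CPM (counts scaled to library size with TMM factors, the unit of all levels below) in WT mouse 7 and to 144 to 258.9 CPM in the others, and ductular markers to 177 CPM against 17.2 to 52.2 CPM. Hepatocyte markers summed to 98800 CPM in this mouse and to 120500 to 141900 CPM in the others. Fold changes are therefore given without and with WT mouse 7. Levels are listed by mouse number within a group, 13, 14 and 15 for HepKO and 5, 6 and 7 for WT.

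**Figure D1:**
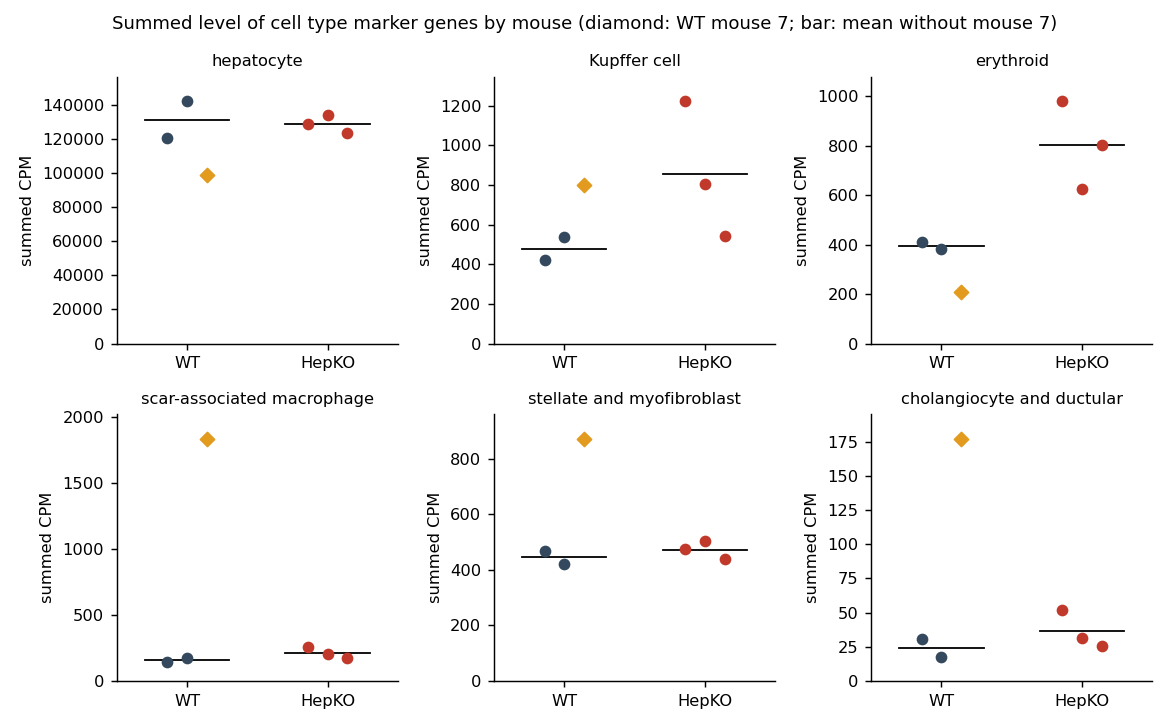
Summed CPM of the marker genes of 6 cell types (linear y axes from 0) in each WT and HepKO mouse; points are mice, the diamond is WT mouse 7 and the bar is the group mean without it. WT mouse 7 is far above all other mice for scar-associated macrophage (1838 CPM), stellate (872 CPM) and ductular (177 CPM) markers, and the HepKO mice lie above the WT mice for erythroid markers.

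With all 6 libraries, 0 of 12413 genes passed an adjusted p of 0.05 (0% called, edgeR quasi-likelihood test with Benjamini-Hochberg adjustment), the smallest adjusted p being 0.0545. At an unadjusted p under 0.05 there were 1249 genes (10.1%), 597 higher and 652 lower in HepKO livers. DESeq2 on the same libraries called 230 genes (2.06% of those it gave an adjusted p), 121 higher and 109 lower. The groups did not overlap, with HepKO higher, for 1163 genes (9.37%) and, with HepKO lower, for 1161 genes (9.35%).

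Without WT mouse 7 the same edgeR test called 349 of 12471 genes (2.8%), of which 191 were higher (1.53%) and 158 lower (1.27%) in HepKO livers. Of these, 137 changed more than 2-fold, 95 of them upward and 42 downward. With all 6 libraries 336 of the 349 kept their sign, 245 had an unadjusted p under 0.05, 233 still did not overlap between the groups, and 166 were called by DESeq2. The 349 calls rest on 2 WT mice: leaving out WT mouse 5 or WT mouse 6 as well gave 89 and 85 calls, leaving out HepKO mouse 14 gave 117, and estimating the spread from all groups of the series gave 5. Whichever further mouse was left out, 47 of the 349 were called (26 higher, 21 lower), and these are the stable calls. Stable refers only to fits that lacked WT mouse 7. That mouse lay within or above the HepKO range for some stable calls, among them Btg2, Cidec and Hspa8. Only 3 stable calls were also made under every other alternative run without WT mouse 7. Of the 93 called genes whose values are given here, 37 are stable calls. In what follows "rose" and "fell" mean an adjusted p under 0.05 without WT mouse 7, and fold changes are HepKO over WT on the log2 scale. The background for every count of genes that rose is 1.53% of all tested genes, and for genes that fell 1.27%. Where a pair of fold changes is given, the first is without WT mouse 7, to which the SE and adjusted p belong, and the second is with all 6 libraries, where the smallest adjusted p of 0.0545 was shared by Hspa1b, Nfya, Ints6, Rbm12b1, Cebpb, Pim3 and Per1 among others.

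**Figure D2:**
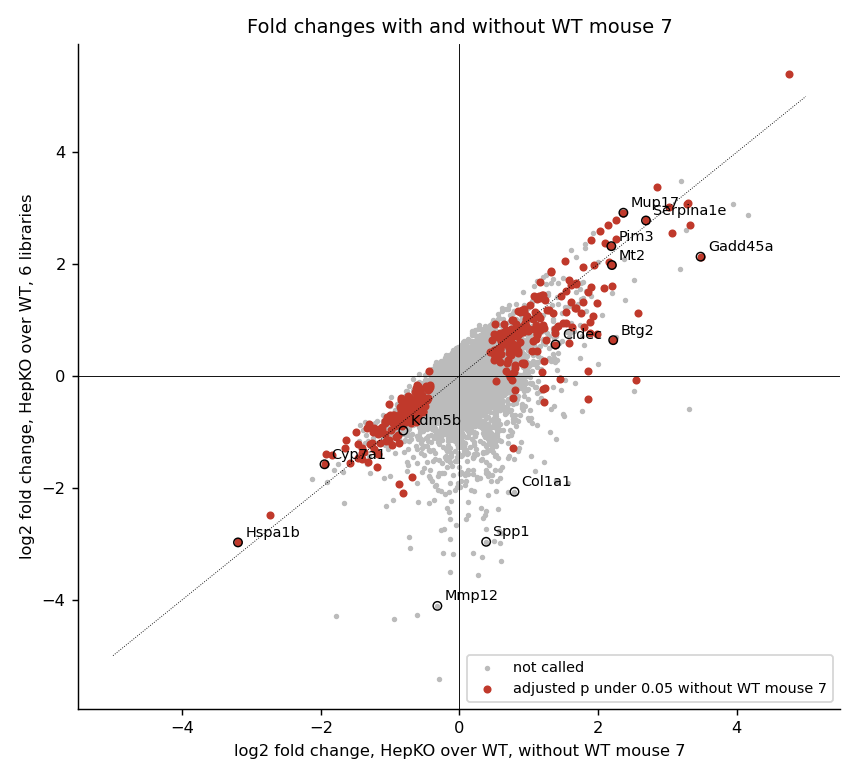
Each point is a gene, with its log2 fold change (HepKO over WT) without WT mouse 7 on the x axis and with all 6 libraries on the y axis; red points had an adjusted p under 0.05 without WT mouse 7, and the dotted line marks equal values. Most red points lie near the line, whereas Col1a1, Spp1 and Mmp12 lie far below it.

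Kdm5b itself was lower but did not pass the test in either fit. Its level was 14.8, 8.65 and 18.1 CPM in the HepKO mice and 22.3, 26.1 and 33.2 CPM in the WT mice, that is 13.8 ± 4.79 against 27.2 ± 5.53 CPM (mean ± SD, n = 3). The groups did not overlap, and the lowest level was in HepKO mouse 14. The log2 fold change was -0.98 (SE 0.28, unadjusted p = 0.0108, adjusted p = 0.347) with 6 libraries and -0.81 (SE 0.24, adjusted p = 0.117) without WT mouse 7. With all 6 libraries no alternative, including the leaving out of any 1 mouse, made Kdm5b pass. Without WT mouse 7 it passed only when HepKO mouse 15, the HepKO mouse with the highest level, was left out too (-1.05, adjusted p = 0.041). Counts were summed over the whole gene (chromosome 1, 134560178 to 134632878, GRCm38.p6), so reads from exons outside the floxed part and from other cell types are included. Kdm5a, a paralog with the same activity, rose, from 27.7 and 28.4 CPM in WT mice 5 and 6 to 41.9, 37.4 and 40.6 CPM (0.51 and 0.34, SE 0.11, adjusted p = 0.0412), but WT mouse 7 had 38.5 CPM, inside the HepKO range. The Kdm5a call was lost when any further mouse of either group was left out, and DESeq2 with all 6 libraries did not make it. Kdm5c, the X-linked paralog, was at 71.7, 69.9 and 70.98 CPM against 82.3, 81.2 and 81.7 CPM (-0.21 and -0.21, adjusted p = 0.252). Kdm5a was the 1 gene called among 14 tested writers and erasers of this histone mark, whose median log2 fold change was 0.09 without WT mouse 7 and 0.13 with it (all genes 0.00 and -0.02). Per length, Kdm5c was the most abundant of these in WT mice (12.7 FPKM on average, against 3.19 for Kdm5a and 4.88 for Kdm5b).

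Of the 32 gene lists, the cytosolic heat shock response held the most genes that fell. These are the chaperones that heat shock factor HSF1 switches on when proteins misfold. Of 18 listed genes 17 were lower, 7 fell (background 1.27%) and 0 rose without WT mouse 7, with a median log2 fold change of -0.53, and with all 6 libraries 15 were lower with a median of -0.46. In the 6 libraries 11 of the 18 had every HepKO mouse below every WT mouse (9.35% of all genes). In the promoters of 3 genes that fell, capitals mark an inverted heat shock unit of 2 parts (GAANNTTC or TTCNNGAA, either strand), shorter than the 3-part element counted below. These promoters are shown as the 250 bases before the RefSeq start (GRCm38.p6). They lie at chr17:34959239-34959488 (minus strand) for Hspa1b, chr5:149636337-149636586 (minus strand) for Hsph1 and chr4:40722218-40722467 (plus strand) for Dnaja1:
Hspa1b: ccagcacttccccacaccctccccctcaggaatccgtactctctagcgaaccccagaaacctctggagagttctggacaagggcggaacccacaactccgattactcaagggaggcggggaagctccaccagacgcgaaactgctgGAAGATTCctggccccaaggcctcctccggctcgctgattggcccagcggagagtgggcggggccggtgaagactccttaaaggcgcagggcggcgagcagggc
Hsph1: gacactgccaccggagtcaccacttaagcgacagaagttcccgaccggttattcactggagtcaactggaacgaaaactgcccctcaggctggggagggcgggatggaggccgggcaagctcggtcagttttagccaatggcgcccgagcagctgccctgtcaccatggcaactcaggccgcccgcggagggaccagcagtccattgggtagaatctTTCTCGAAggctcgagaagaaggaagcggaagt
Dnaja1: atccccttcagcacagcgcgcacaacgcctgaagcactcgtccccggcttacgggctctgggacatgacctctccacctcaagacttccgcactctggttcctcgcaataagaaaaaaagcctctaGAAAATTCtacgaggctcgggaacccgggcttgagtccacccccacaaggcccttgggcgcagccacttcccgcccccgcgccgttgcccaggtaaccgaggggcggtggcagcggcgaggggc
In Hspa1b the unit begins 104 bases before the start, in Hsph1 33 bases and in Dnaja1 124 bases. Among the 13 listed genes with a promoter sequence, 7 held such a unit (53.8%), against 1221 of 9968 tested genes (12.2%). The windows of Dnajb1, Bag3 and Chordc1, which also fell, held none. A unit was also present in Hspa1a, Hspb1, Hspe1 and Hspd1, which did not pass the test, with 3 overlapping units in Hspe1 and in 1 of the 2 windows of Hspd1. These Hspe1 and Hspd1 windows (chr1:55087898-55088147 and chr1:55087933-55088182) overlap on opposite strands, and their units are the same bases. The 7 genes thus count this shared stretch more than once, and also count Hspa1a and Hspa1b, whose promoters are nearly identical, separately. Of the 3 Dnaja1 windows 1 held the unit. The 3-part element adds 1 more inverted part, again 2 bases away. It was held by 2 of the 13 listed genes (15.4%), against 45 of 9968 tested genes (0.451%). These 2 were Hspe1 and Hspd1, through the stretch they share, so none of the 3 promoters shown held the 3-part element.

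Hspa1b, the stress-inducible HSP70, had the largest decrease of the genes named by the rule when WT mouse 7 was left out. It was at 3.46, 3.12 and 3.02 CPM in HepKO mice and 36.95, 21.8 and 16.9 CPM in WT mice (-3.20 and -2.98, SE 0.22, adjusted p = 0.00154). Each WT mouse was several times above every HepKO mouse, WT mouse 7 being the closest. The neighbouring copy Hspa1a was far lower at 0.703, 0.294 and 0.580 and 1.29, 0.868 and 1.75 CPM (-1.03 and -1.30, adjusted p = 0.236), and since the coding copies are nearly identical, as are their promoters (247 of 250 bases), the split of reads between them is uncertain. The co-chaperones and nucleotide exchange factors moved the same way. Hsph1, an HSP110 exchange factor, fell from 50.6 and 36.2 CPM in WT mice 5 and 6 to 18.1, 15.8 and 13.2 CPM (-1.47 and -1.21, adjusted p = 0.0034), with 22.4 CPM in WT mouse 7. Dnajb1, the main HSP40 partner of HSP70, fell from 29.6 and 30.1 to 11.4, 14.01 and 12.5 CPM (-1.24 and -0.99, adjusted p = 0.00235), with 16 CPM in WT mouse 7. Hspa8, the constitutive HSC70, was at 832, 990.3 and 989 CPM against 1953, 1671 and 958 CPM (-0.95 and -0.70, adjusted p = 0.00394), and here WT mouse 7 lay within the HepKO range. Chordc1, an HSP90 co-chaperone, changed by -1.13 and -0.94 (adjusted p = 0.00524), Bag3, which links HSP70 to autophagy, by -0.72 and -0.69 (adjusted p = 0.011), and Dnaja1 by -0.67 and -0.47 (adjusted p = 0.0218). The HSP90 genes Hsp90aa1 (-0.49 and -0.43, adjusted p = 0.0627) and Hsp90ab1 (-0.24 and -0.18, adjusted p = 0.267) and the mitochondrial chaperonin Hspd1 (-0.08 and 0.02, adjusted p = 0.711) did not pass. Hspa1b, Hsph1, Dnajb1 and Hspa8 were among the stable calls. Endoplasmic reticulum stress genes did not share the direction, with 10 of 24 higher, 1 that rose and 0 that fell. The 1 was Chac1, a glutathione-degrading enzyme, at 23.4, 10.8 and 6.44 CPM against 1.48, 1.74 and 3.59 CPM (3.06 and 2.56, adjusted p = 0.0233).

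**Figure D3:**
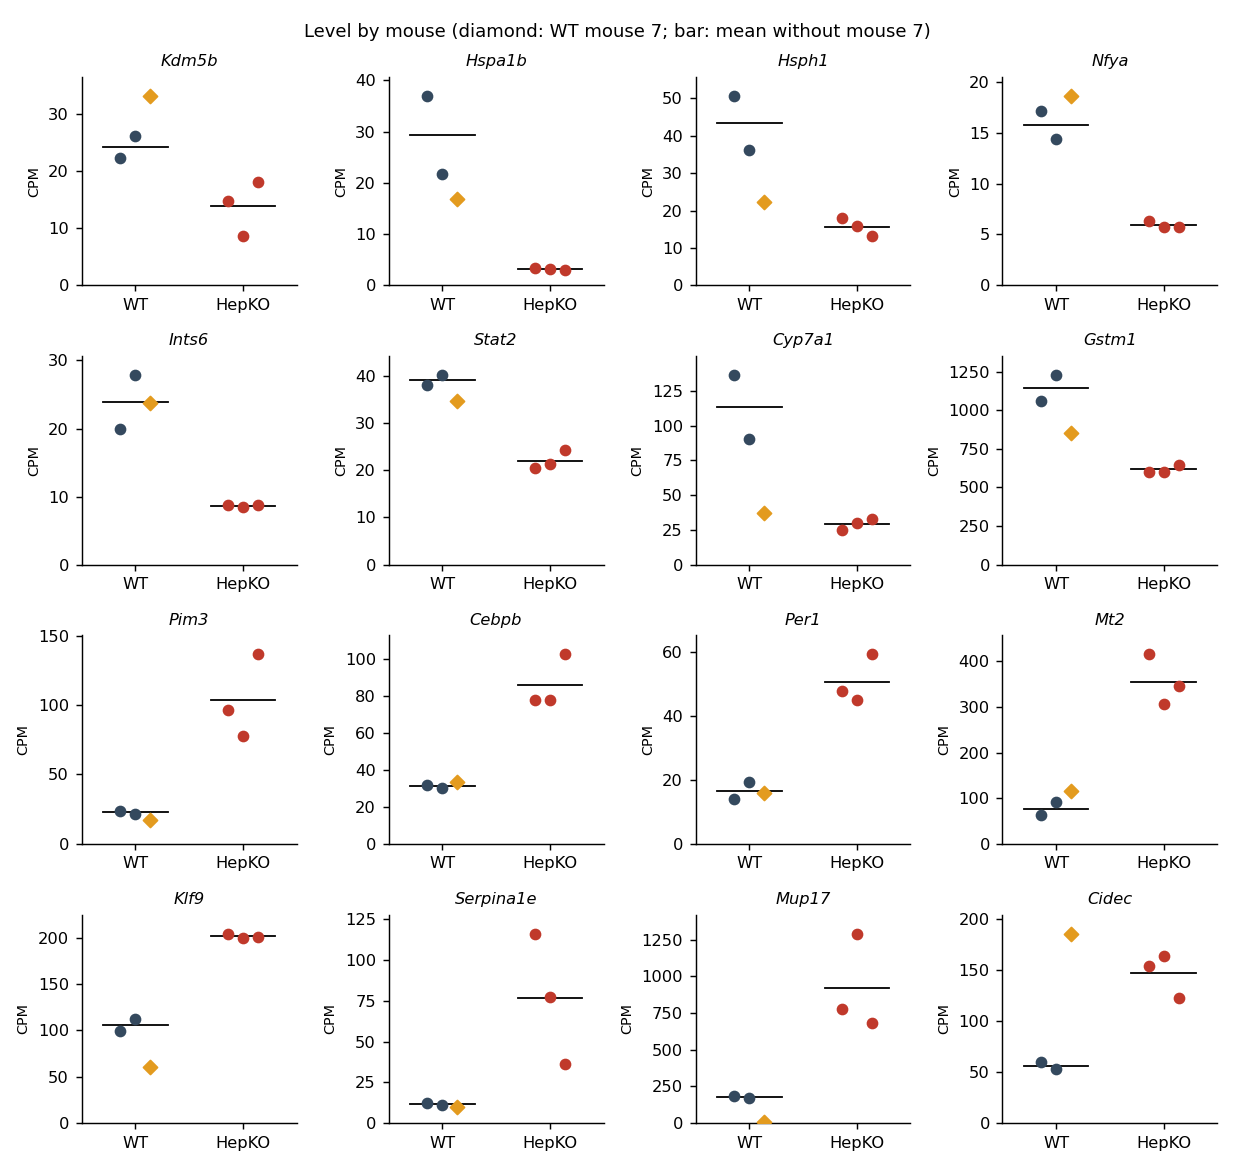
CPM (linear y axes from 0) of 16 genes in each WT and HepKO mouse; points are mice, the diamond is WT mouse 7 and the bar is the group mean without it. Hspa1b, Nfya, Ints6 and Stat2 are lower, and Pim3, Cebpb, Per1, Mt2, Klf9 and Serpina1e higher, in every HepKO mouse than in any WT mouse, whereas for Cidec WT mouse 7 lies above the HepKO mice.

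Several regulators of transcription and RNA processing differed with little spread in either group, WT mouse 7 included. Nfya, the regulatory subunit of the CCAAT-binding factor NF-Y, was at 6.33, 5.77 and 5.74 CPM in HepKO mice and 17.1, 14.3 and 18.6 CPM in WT mice (-1.40 and -1.49, SE 0.14, adjusted p = 0.00235). Ints6, a subunit of the Integrator complex that cleaves nascent RNA, was at 8.73, 8.48 and 8.81 CPM against 19.9, 27.8 and 23.8 CPM (-1.46 and -1.46, adjusted p = 0.00235). For both genes every WT mouse was more than 2 times the highest HepKO mouse. The predicted RNA-binding genes Rbm12b1 (-1.40 and -1.38, adjusted p = 0.00235) and its neighbour Rbm12b2 (-1.15 and -1.19, adjusted p = 0.027) fell too, and being near copies they may share reads. Nfya, Ints6 and Proser2 were the 3 of the 349 genes called under every alternative run without WT mouse 7. With the spread taken from the whole series, 5 were called with and without that mouse, these 3, Msl3l2 and Slc39a5; Proser2, Msl3l2 and Slc39a5 were singled out after their values were seen. Proser2 had 8.79, 9.71 and 9.92 CPM against 22.6, 18.6 and 12.2 CPM (-1.12 and -0.91, adjusted p = 0.00394). Msl3l2 was at 4.98, 3.71 and 3.25 CPM against 0.493, 0.289 and 0.991 CPM and Slc39a5, a zinc transporter, at 4.63, 4.59 and 1.62 CPM against 0.432, 0.289 and 0.519 CPM. The WT levels of both were near the limit of detection. Slc39a5 was not a stable call, since it was lost when HepKO mouse 14, WT mouse 5 or WT mouse 6 was left out too.

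The naming rule picked further genes of other kinds. Among those that fell, Rgs16, a regulator of G protein signalling, was at 22.7, 24.4 and 35.1 CPM against 116, 92.1 and 9.16 CPM (-1.92 and -1.40, adjusted p = 0.00215), Tmem25 at 8.20, 8.89 and 13.3 CPM against 30.8, 32.9 and 10.7 CPM (-1.66 and -1.29, adjusted p = 0.00267), Ugt1a5, a glucuronosyltransferase of a locus with shared exons, at 26.3, 23.8 and 29.6 CPM against 76.4, 89.3 and 10.6 CPM (-1.64 and -1.14, adjusted p = 0.00163), and Hhex, a homeobox factor of liver development, at 16.8, 40.1 and 42.3 CPM against 109, 87.9 and 93.98 CPM (-1.57 and -1.55, adjusted p = 0.0324). WT mouse 7 was below or inside the HepKO range for Rgs16, Tmem25 and Ugt1a5. Plcxd2 changed by -1.40 and -1.29 (adjusted p = 0.00235). With all 6 libraries, where no gene passed, the rule also picked Trmt1l (-1.37, unadjusted p = 0.000144), Thap2 (-1.21, unadjusted p = 0.000347), Zfc3h1 (-1.09, unadjusted p = 0.000386), 2010003K11Rik and the hepatocyte factor Foxa3 (-1.05, unadjusted p = 0.000916) on the lower side, and Dgke (1.17, unadjusted p = 0.00062) and Gal3st1 (1.02, unadjusted p = 0.000642) on the higher side.

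Splicing factors changed in both directions. Of 23 listed genes 3 rose (background 1.53%) and 6 fell (background 1.27%) without WT mouse 7 (median -0.03), and with all 6 libraries DESeq2 called 2 higher and 6 lower, 8 of 23 against 2.06% of all genes. Srsf5, an SR protein, rose from 132, 122 and 143 CPM to 249.8, 228 and 264 CPM (0.96 and 0.90, adjusted p = 0.00235), and Cirbp, the cold-inducible RNA-binding protein, from 18.8, 22.3 and 29.9 to 41.5, 42.97 and 48.7 CPM (1.11 and 0.91, adjusted p = 0.00341). In both, each HepKO mouse was above each WT mouse. The other gene that rose was Hnrnpdl. Those that fell were Luc7l (-0.77 and -0.69, adjusted p = 0.00747) and Luc7l3 (-0.65 and -0.75, adjusted p = 0.0159), which act with the U1 particle at the 5′ splice site, the splicing activators Tra2a (-0.63 and -0.74, adjusted p = 0.0354) and Tra2b (-0.61 and -0.69, adjusted p = 0.0211), the SR protein Srsf1 (-0.50 and -0.54, adjusted p = 0.0387) and the SR protein kinase Clk1 (-0.64 and -0.64, adjusted p = 0.0378). Tra2b stood at 29.2, 30.6 and 33.4 CPM in HepKO mice and 49.2, 45.8 and 55.5 CPM in WT mice. Srsf5 and Cirbp were stable calls.

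Cebpb, a C/EBP factor of the acute phase and of gluconeogenesis, rose from 31.6, 30.4 and 33.5 CPM to 78.1, 77.8 and 103 CPM (1.47 and 1.44, adjusted p = 0.00235). Pim3, a serine/threonine kinase, showed 96.7, 77.3 and 136 CPM against 23.9, 21.3 and 16.9 CPM (2.19 and 2.32, adjusted p = 0.00235). In these 2 genes the lowest HepKO mouse was more than 2 times the highest WT mouse. Mfsd2a, the transporter of lysophospholipid-bound omega fatty acids, rose by 0.96 and 1.02 (adjusted p = 0.00401) at 365, 437 and 387 CPM against 190, 217 and 178 CPM.

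Of the 18 immediate early genes, which answer growth factors and stress within minutes, all 18 were higher without WT mouse 7 and 5 rose (background 1.53%), with a median of 0.96. WT mouse 7 was itself high for several of them, so that with 6 libraries 12 of 18 were higher and the median was 0.46. Dusp1, a MAP kinase phosphatase, was at 44.3, 43.9 and 58.6 CPM against 22.3, 19.4 and 15.2 CPM (1.23 and 1.37, adjusted p = 0.00512) and did not overlap. Btg2, an antiproliferative gene, was at 54.6, 46.1 and 73 CPM against 11.7 and 13.1 CPM in WT mice 5 and 6 (2.22 and 0.64, adjusted p = 0.00215), yet WT mouse 7 had 86.05 CPM, above every HepKO mouse. Fos (1.99 and 1.30, adjusted p = 0.00721) and Jund (0.70 and 0.28, adjusted p = 0.0325), parts of AP-1, and Myc (1.24 and -0.21, adjusted p = 0.0423) completed the 5. WT mouse 7 had 109.6 CPM of Jund and 23.1 CPM of Myc, above every HepKO mouse, and the sign of the Myc change turned with it. Egr1 (0.28 and 0.08, adjusted p = 0.69) and Fosl2 (0.01 and -0.36, adjusted p = 0.968) did not pass.

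Targets of p53 and of DNA damage signalling followed a similar course. Of 14 genes 12 were higher and 5 rose (background 1.53%) without WT mouse 7 (median 0.44), whereas 5 were higher with it (median -0.13). Sesn2, a stress-induced inhibitor of mTORC1, rose from 9.87 and 7.93 CPM in WT mice 5 and 6 to 32.6, 24.6 and 24.4 CPM, with 14.7 CPM in WT mouse 7 (1.61 and 1.32, adjusted p = 0.00235). Gadd45a, a growth arrest gene, varied most among HepKO mice at 30.2, 13.01 and 7.02 CPM against 1.23, 1.74 and 8.26 CPM (3.48 and 2.13, adjusted p = 0.0244). HepKO mouse 13 had the highest level and HepKO mouse 15 lay below WT mouse 7. Cdkn1a, the cell cycle inhibitor p21 (1.38 and 0.83, adjusted p = 0.0273), Gdf15, a stress-induced hormone (1.89 and 0.76, adjusted p = 0.00567), and Trp53inp1 (1.42 and 0.89, adjusted p = 0.0471) also rose, and for each of them WT mouse 7 lay within or above the HepKO range. Trp53 itself was at -0.40 and -0.66 (adjusted p = 0.175). None of 18 tested cell cycle and replication genes was called, with medians of -0.18 without WT mouse 7 and -0.84 with it.

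Metallothioneins, the small zinc- and copper-binding proteins, rose together with the zinc exporter Slc30a1. Their promoters are shown because the metal-regulated factor MTF1 is known to act on them. Capitals mark the core TGCACNC or TGCGCNC on either strand. This core was held by 6 of the 13 metal and iron genes with a promoter sequence (46.2%) and by 3344 of 9968 tested genes (33.5%) in the same window. Whether MTF1 acts through the marked cores was not tested. The windows are chr8:94172368-94172617 for Mt2 and chr8:94178839-94179088 for Mt1 (plus strand, GRCm38.p6):
Mt2: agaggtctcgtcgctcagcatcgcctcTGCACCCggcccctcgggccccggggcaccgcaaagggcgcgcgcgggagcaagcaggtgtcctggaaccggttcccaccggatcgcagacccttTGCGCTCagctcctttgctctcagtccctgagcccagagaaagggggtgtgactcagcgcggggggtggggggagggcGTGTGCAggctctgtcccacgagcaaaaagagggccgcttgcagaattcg
Mt1: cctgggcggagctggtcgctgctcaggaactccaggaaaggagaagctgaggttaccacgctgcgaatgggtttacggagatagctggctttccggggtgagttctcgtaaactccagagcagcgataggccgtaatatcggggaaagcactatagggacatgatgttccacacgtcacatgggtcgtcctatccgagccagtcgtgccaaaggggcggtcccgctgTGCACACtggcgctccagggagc
Mt2 was at 415, 306 and 345 CPM in HepKO mice and 62.7, 91.5 and 115 CPM in WT mice (2.20 and 1.99, SE 0.19, adjusted p = 0.00215). Mt1 was at 588, 427 and 424 CPM against 87.9, 176 and 242 CPM (1.86 and 1.51, adjusted p = 0.0103). Every HepKO mouse was above every WT mouse for both. Slc30a1 rose by 0.68 and 0.69 (adjusted p = 0.0388). In the same list of 20 metal and iron genes 1 fell, Hamp2, a copy of the iron hormone hepcidin, at 72.97, 57.9 and 53.6 CPM against 158, 189 and 21.2 CPM (-1.50 and -0.99, adjusted p = 0.00215), where WT mouse 7 was the lowest of all.

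Of 19 clock genes 2 rose (background 1.53%) and 0 fell without WT mouse 7 (median 0.17), and the median was 0.30 with all 6 libraries. Per1, a repressor of the clock that also answers acute hormonal signals, was at 47.7, 44.9 and 59.1 CPM against 13.9, 19.1 and 15.7 CPM (1.61 and 1.64, adjusted p = 0.00235), a separation well outside the spread of either group. Ciart, a repressor of the clock, was at 7.61, 8.83 and 8.29 CPM against 0.185, 1.79 and 1.04 CPM (3.02 and 3.02, adjusted p = 0.016). Genes with strong daily rhythms differed widely among the WT mice. Dbp was at 3.27, 33.8 and 5.10 CPM in WT mice and 14.2, 16.4 and 23.4 CPM in HepKO mice, and Per3 at 2.04, 10.8 and 6.42 and 4.92, 4.42 and 4.06 CPM. The HepKO mice lay inside the WT range for both. The labels give no hour of collection, and its part in these values was not tested.

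A list of 20 genes known in liver as glucocorticoid-inducible was drawn up after their values were seen, so its count is a description: 13 of the 191 genes that rose were on it and 1 listed gene fell without WT mouse 7 (median 1.21), and with 6 libraries DESeq2 called 11 higher and 1 lower (median 1.14). Klf9, a direct target of the receptor, was at 205, 199 and 200.5 CPM against 99.5, 112 and 60.4 CPM (0.93 and 1.15, adjusted p = 0.00235), and Errfi1, an inhibitor of the EGF receptor, at 1336, 1492 and 1611 CPM against 748, 543 and 335 CPM (1.20 and 1.45, adjusted p = 0.00451). Every HepKO mouse exceeded every WT mouse in both. Tat, tyrosine aminotransferase, was at 2769, 1938 and 1753 CPM against 979, 858 and 1731 CPM (1.23 and 0.86, adjusted p = 0.0112), with WT mouse 7 just below HepKO mouse 15. Pck1, the gluconeogenic PEPCK, rose to 3831, 3777 and 4475 CPM from 2716, 2763 and 1983 CPM (0.55 and 0.69, adjusted p = 0.0313). Ddit4 (2.20 and 1.61, adjusted p = 0.0177), Cebpd (1.54 and 1.14, adjusted p = 0.00394) and Lpin1, a phosphatidate phosphatase (1.79 and 1.94, adjusted p = 0.0186), were others. The common reporters Fkbp5 (32.6, 63.6 and 43.8 CPM against 27.8, 46.8 and 35.4 CPM, 0.32 and 0.35, adjusted p = 0.562) and Tsc22d3 (46.3, 50.7 and 44.1 CPM against 61.4, 57.05 and 24.8 CPM, -0.33 and -0.02, adjusted p = 0.127) did not pass, nor did Nr3c1, the receptor (0.25 and 0.32, adjusted p = 0.392). Lcn2, the 1 that fell, is also an acute phase gene.

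Genes that male livers express more than female livers were mostly higher (20 of 27) in these female HepKO livers. Of 27 tested male-biased genes 8 rose (background 1.53%) and 0 fell without WT mouse 7, with a median of 0.57, and the median was 0.56 with all 6. The 8 include 4 Mup copies. Serpina1e, a copy of the alpha-1-antitrypsin gene that may share reads with the others, was at 116, 77.1 and 36.2 CPM against 12.5, 11.2 and 9.77 CPM (2.69 and 2.78, adjusted p = 0.0135). The groups were far apart, and HepKO mouse 15 was the lowest of the 3. Among the major urinary protein genes, pheromone carriers under growth hormone control, 7 of 20 tested rose (background 1.53%) and 0 fell. Mup17 was at 778, 1292 and 683 CPM against 185, 170.5 and 8.31 CPM (2.37 and 2.92, adjusted p = 0.00235) and Mup11 at 254, 362 and 219 CPM against 54.96, 60.8 and 4.77 CPM (2.26 and 2.79, adjusted p = 0.00215). Mup13 (2.85 and 3.37, adjusted p = 0.00235) and Mup15 (2.15 and 2.71, adjusted p = 0.00235) rose too. WT mouse 7 was far below the other WT mice for Mup17 and Mup11. The Mup copies are nearly identical, and which copy a read was given to is uncertain, but their summed level was 22700, 31610 and 19570 CPM in HepKO mice, 14820 and 13270 CPM in WT mice 5 and 6 and 754 CPM in WT mouse 7. Mup3 (-0.29 and 0.25, adjusted p = 0.152) and Mup20 (0.01 and -0.67, adjusted p = 0.978) did not pass. Elovl3, a fatty acid elongase of male liver, rose from 24.8 and 16.7 CPM in WT mice 5 and 6 to 54.8, 61.6 and 38.7 CPM (1.32 and 1.87, adjusted p = 0.0184). Cyp4a12a, a male-specific hydroxylase, was at 3.81, 3.65 and 1.45 CPM against 0.247, 0.347 and 0.425 CPM (3.28 and 3.08, adjusted p = 0.019). Female-biased genes were not the mirror image, with 2 of 25 that rose (Sult3a1 and Cyp2a4), 0 that fell and a median of -0.04.

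Interferon-stimulated genes were lower. Of 22 tested 20 were lower and 5 fell (background 1.27%) without WT mouse 7, with a median of -0.52, and all 22 were lower with 6 libraries, with a median of -0.49 and 12 without overlap (background 9.35%). Stat2, the signal transducer of type I interferon, was at 20.5, 21.2 and 24.2 CPM against 37.9, 40.1 and 34.5 CPM (-0.83 and -0.77, adjusted p = 0.00721). The ubiquitin-like Isg15 was at 3.28, 3.59 and 3.36 CPM against 8.64, 5.79 and 6.66 CPM (-1.08 and -1.04, adjusted p = 0.0341). Every HepKO mouse was below every WT mouse in both, although Isg15 levels were low. Oasl2 (-1.19 and -1.62, adjusted p = 0.0208), the immunity GTPase Irgm1 (-0.73 and -0.52, adjusted p = 0.0228) and the nucleic acid sensor Zbp1 (-0.98 and -0.97, adjusted p = 0.048) were the others, whereas Irf7 (-0.20 and -0.13, adjusted p = 0.462) and Ifit1 (-1.02 and -0.93, adjusted p = 0.0553) did not pass. None of the 5 was a stable call.

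Of 21 acute phase genes 3 fell (background 1.27%) without WT mouse 7, where 16 were lower (median -0.18), whereas with all 6 libraries 12 were higher and 9 lower (median 0.01). The 3 were the serum amyloids Saa1, at 14.9, 24.9 and 21.9 CPM against 39.7, 45.6 and 52.9 CPM (-1.05 and -1.16, adjusted p = 0.0218), and Saa2 (-1.23 and -1.31, adjusted p = 0.039), and the siderophore-binding Lcn2 (-0.82 and -2.10, adjusted p = 0.0128). WT mice were above HepKO mice for all 3 with WT mouse 7 included. Antioxidant genes of the glutathione and NRF2 system fell in 4 of 20 cases (background 1.27%) and rose in 0, with medians of -0.20 without WT mouse 7 and -0.32 with it. Gstm1, an abundant glutathione transferase, went from 1061, 1226 and 855 CPM to 600.3, 602 and 647 CPM (-0.89 and -0.76, adjusted p = 0.00265), and Gstm2 from 63.8, 55.7 and 35.1 to 27.1, 25.96 and 27.1 CPM (-1.16 and -0.95, adjusted p = 0.00215). The groups did not overlap for either of these related genes, which may share reads. Gstm3 (-0.68 and -1.81, adjusted p = 0.0395) and Nfe2l2, the NRF2 factor itself (-0.62 and -0.82, adjusted p = 0.0428), fell as well. Hmox1, heme oxygenase, was higher on average (1.07 and 0.87, adjusted p = 0.128) and did not pass.

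**Figure D4:**
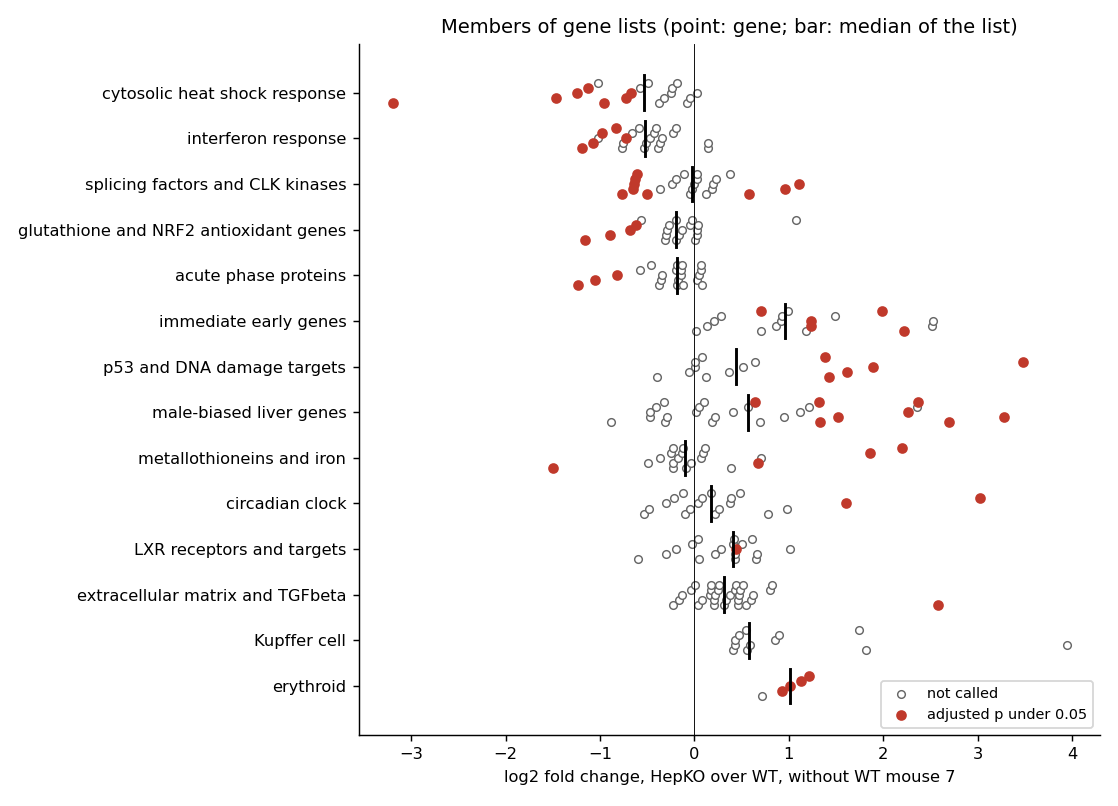
Log2 fold change (HepKO over WT, without WT mouse 7) of each tested member of 14 gene lists; red points had an adjusted p under 0.05, open points did not, and the bar is the median of the list. Heat shock and interferon genes lie mostly left of 0, immediate early, Kupffer and erythroid genes right of 0, and splicing factors on both sides.

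In bile acid synthesis 2 of 18 genes fell (background 1.27%). Without WT mouse 7, 8 of the 18 were higher (median -0.01), and with all 6 libraries 16 were higher (median 0.30). Cyp7a1, the rate-limiting enzyme of the classical pathway, was at 25.01, 30.2 and 32.9 CPM in HepKO mice against 136, 90.2 and 36.9 CPM in WT mice (-1.95 and -1.58, SE 0.18, adjusted p = 0.00215). WT mouse 7 was close to the highest HepKO mouse. Fgfr4, the hepatocyte receptor through which FGF15 restrains Cyp7a1, fell (-0.65 and -0.56, adjusted p = 0.0385). Cyp27a1, which makes oxysterols and bile acids, was at 251, 252 and 271 CPM against 233, 212 and 108 CPM (0.21 and 0.49, adjusted p = 0.255), and Nr0b2, the repressor SHP, at 0.41 and 0.86 (adjusted p = 0.334). Neither passed. None of 13 bile acid and organic anion transporters was called (medians 0.21 and 0.40). All 9 tested Cyp3a genes were higher without WT mouse 7 and 0 were called. The most abundant, Cyp3a11, was at 8959, 8338 and 7237 CPM against 5989, 5625 and 3511 CPM (0.49 and 0.70, adjusted p = 0.0542), Cyp3a59 at 191, 195 and 175 against 116, 154 and 52.6 CPM (0.47 and 0.80, adjusted p = 0.0941), and Cyp3a16, at 0.410, 3.53 and 1.86 against 0.123, 0.289 and 0 CPM (adjusted p = 0.109, not tested with 6 libraries), was near the limit of detection.

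LXR targets, the cholesterol efflux and lipid genes of the oxysterol receptors, were mostly higher in HepKO livers by number of genes. Without WT mouse 7, 14 of 18 were higher with a median of 0.41, and with it 13 of 18 with a median of 0.28. Their summed level was not higher than in WT mice 5 and 6, at 42400, 44380 and 42070 CPM against 53370, 47070 and 24390 CPM. DESeq2 without WT mouse 7, with 620 calls over all genes, called 3 of the 18 higher and 1 lower. A single gene rose, Lpcat3, a phospholipid-remodelling acyltransferase, at 270, 269 and 255 CPM against 201, 189.9 and 197 CPM (0.44 and 0.43, adjusted p = 0.0412). Srebf1, the lipogenic factor, was at 389, 289 and 267 CPM against 188, 211 and 194 CPM (0.66 and 0.67, adjusted p = 0.0629) and Abcg5, a sterol exporter, at 562, 474 and 571 CPM against 412, 382 and 206 CPM (0.43 and 0.69, adjusted p = 0.0768). The groups did not overlap for these 2 genes, which missed the threshold. Other LXR-related genes that the study names did not pass, namely Abca1 0.40 and 0.31 (adjusted p = 0.224), Abcg1 0.43 and -0.35 (adjusted p = 0.118), Apoc1 -0.30 and 0.01 (adjusted p = 0.185) and Apoe 0.03 and 0.28 (adjusted p = 0.908). The receptor gene Nr1h3 was at -0.20 and -0.05 (adjusted p = 0.351). Of 19 lipogenic genes 0 were called (median -0.01 without WT mouse 7 and 0.14 with it), fatty acid synthase Fasn being at -0.03 and 0.22 (adjusted p = 0.941). Of 23 cholesterol synthesis genes 1 fell, Tm7sf2 (-0.63 and -0.22, adjusted p = 0.0166), at 27.6, 26.7 and 25.2 CPM against 40.3, 41.5 and 10.8 CPM, where WT mouse 7 was the lowest of all.

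Lipid droplet and fuel genes gave a few clear changes. Cidec, which fuses lipid droplets, rose from 59.4 and 52.7 CPM in WT mice 5 and 6 to 154, 164 and 123 CPM (1.39 and 0.56, adjusted p = 0.00235), but WT mouse 7 was at 186 CPM, above every HepKO mouse. G0s2, an inhibitor of the lipase ATGL, was at 362, 328 and 336 CPM against 148, 175 and 58.8 CPM (1.08 and 1.43, adjusted p = 0.00235), with WT mouse 7 on the same side as the other WT mice. Pdk4, which shuts glucose carbon out of mitochondria, was the 1 gene called among 26 of fatty acid oxidation, at 41.99, 49.3 and 72.4 CPM against 28.3, 20.3 and 31.2 CPM (1.17 and 1.03, adjusted p = 0.0354). Irs1, the insulin receptor substrate, fell from 38.1 and 36.97 CPM in WT mice 5 and 6 to 14.9, 17.7 and 20.6 CPM (-1.08 and -0.83, adjusted p = 0.00534), with 19.8 CPM in WT mouse 7, inside the HepKO range. Irs1 and Pck1 were the 2 called among 20 genes of glucose metabolism. Of 13 alcohol and aldehyde dehydrogenase and related genes 0 were called, Adh1 being at -0.33 and -0.15 (adjusted p = 0.113) and Aldh2 at -0.12 and 0.18 (adjusted p = 0.461). Of 23 Cyp1 and Cyp2 genes 1 rose (Cyp2a4) and 2 fell (Cyp2c37 and Cyp2c70). In that list 8 genes were higher without WT mouse 7 and 19 with all 6 libraries. Of 15 retinoid genes 1 rose (Rdh9). For these and the zonation lists the background was 1.53% for genes that rose and 1.27% for genes that fell. In the zonation lists Rnf43 (-1.01 and -0.70, adjusted p = 0.0124) and Tbx3 (-0.60 and -0.17, adjusted p = 0.044), both WNT-regulated, fell among 18 pericentral genes, and Apoa4 (0.69 and 0.23, adjusted p = 0.0137) and Pck1 rose among 18 periportal genes. WT mouse 7 was below the HepKO mice for Tbx3 (10.3 CPM against 30.2, 24.3 and 31.1 CPM), near the lowest of them for Rnf43 (11 CPM against 10.7, 12.5 and 15.2 CPM) and above them for Apoa4 (9136 CPM against 6390, 6796 and 7580 CPM).

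Most extracellular matrix genes depended on WT mouse 7 for their direction. Of 31 extracellular matrix and TGFbeta genes 27 were higher without it (median 0.32) and 6 with it (median -0.56). Col1a1, the main fibrillar collagen chain, was at 8.26, 6.42 and 4.93 CPM in HepKO mice, 3.39 and 4.11 CPM in WT mice 5 and 6 and 74.3 CPM in WT mouse 7, so that its log2 fold change was 0.80 (adjusted p = 0.12) or -2.07 (adjusted p = 0.587). Mmp12, a macrophage elastase, was at 1.46, 2.71 and 2.49 CPM against 2.28, 3.24 and 109 CPM (-0.32 and -4.11, adjusted p = 0.609). For Col1a1 this 1 mouse set the direction, whereas Mmp12 was lower in both fits and the mouse changed the size of its difference. Timp1 was at 0.0586, 0.118 and 0.232 CPM in HepKO mice and 0.0617, 0.174 and 4.06 CPM in WT mice, and Timp1, Mmp13 and Tnf were too low to be tested. Tgfb1 (0.47 and -0.20, adjusted p = 0.293), Mmp9 (-0.23 and -0.64, adjusted p = 0.771), Ccl2 (-1.09 and -1.82, adjusted p = 0.205) and Ccr2 (-0.37 and -2.21, adjusted p = 0.685) did not pass. Of 17 inflammatory mediators, 13 metalloproteinase genes (medians 0.13 and -0.64) and 7 MHC class II genes (-0.34 and -1.63) 0 were called in either fit. At an unadjusted p under 0.05 with all 6 libraries (10.1% of all genes), 3 mediators and 3 MHC class II genes were lower. Of the metalloproteinase genes 1 was higher and 1 lower at that threshold. Without WT mouse 7 there were 5, 2 and 0 in the 3 lists, and the share over all genes was not calculated for that fit.

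**Figure D5:**
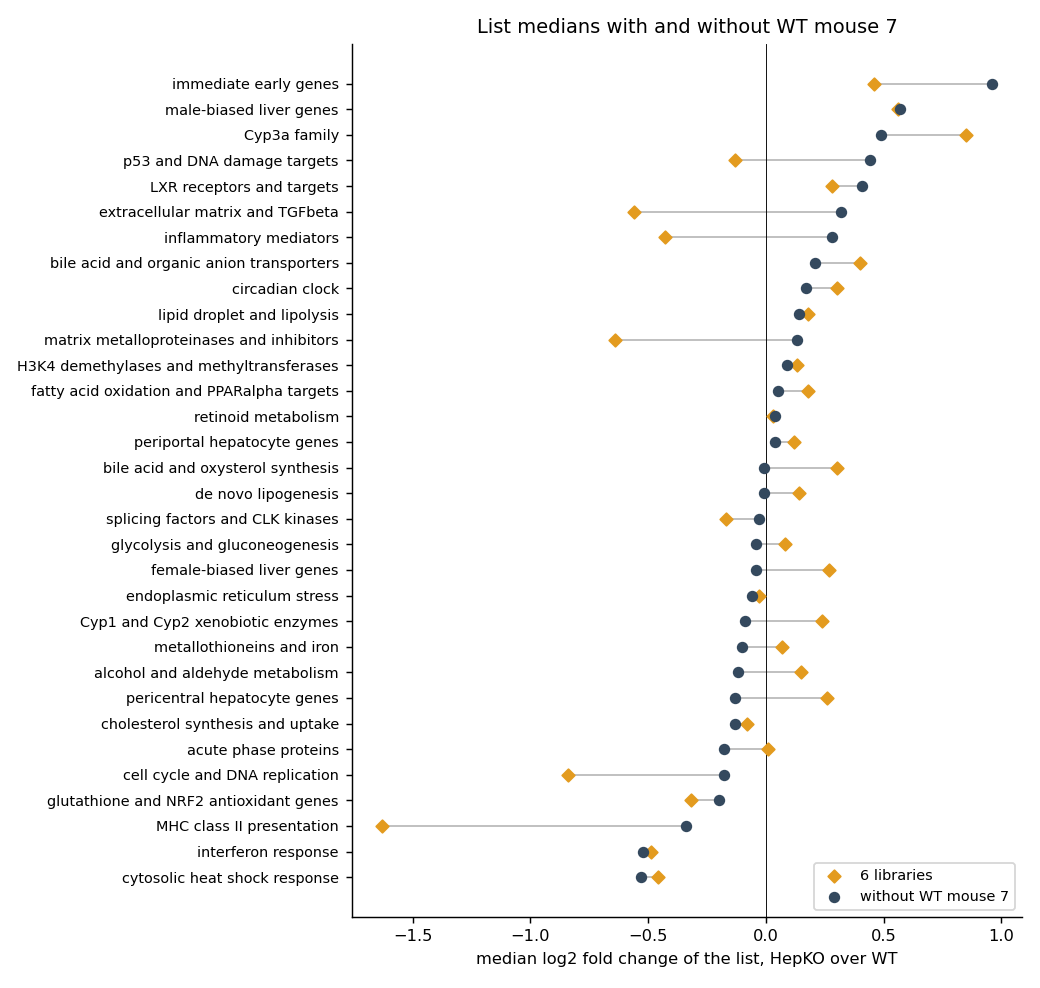
Median log2 fold change (HepKO over WT) of 32 gene lists with all 6 libraries (diamonds) and without WT mouse 7 (circles), ordered by the latter. The medians of the extracellular matrix (-0.56 and 0.32) and inflammatory mediator (-0.43 and 0.28) lists change sign, whereas those of heat shock (-0.46 and -0.53), interferon (-0.49 and -0.52) and male-biased genes (0.56 and 0.57) hardly move.

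Markers of other cells moved with the groups as well. Erythroid genes, which report blood in the tissue, rose in 4 of 5 tested cases (background 1.53%). Their summed level was 979.2, 623.4 and 802.5 CPM in HepKO mice and 408.9, 381.1 and 207.8 CPM in WT mice. Hba-a1 was at 315, 208 and 247 CPM against 126, 109 and 61.8 CPM (1.12 and 1.38, adjusted p = 0.011). All HepKO mice were above all WT mice, and the part of blood content in the other results was not tested. Kupffer cell markers were higher in 12 of 12 cases without WT mouse 7 (median 0.57) and 0 were called. Their sums were 1222, 805.2 and 544.1 CPM in HepKO mice and 422.9, 535.5 and 797.6 CPM in WT mice, so the groups overlapped. Marco, a scavenger receptor, ranged most, at 156, 56.3 and 12.1 CPM in HepKO mice and 3.70, 5.96 and 16.6 CPM in WT mice (3.94 and 3.08, adjusted p = 0.058), and Cd163 was at 19.8, 25.1 and 18.8 and 8.57, 19.1 and 1.04 CPM (0.61 and 1.16, adjusted p = 0.261). HepKO mouse 13, the highest for Kupffer markers, was also the highest for Gadd45a, Chac1 and Serpina1e. Of the scar-associated macrophage markers Fabp5 fell, of the hepatocyte markers Tat rose, and stellate, endothelial, lymphocyte, neutrophil, mesothelial and ductular markers gave 0 calls, and pancreatic and skeletal muscle markers summed to at most 3.02 and 0.80 CPM. Cfd, an adipocyte and liver complement gene, rose from 0.493, 0.116 and 0 CPM to 5.62, 14.1 and 5.04 CPM (4.75 and 5.40, adjusted p = 0.0101). The other genes of the adipocyte list that were tested, Aqp7 and Car3, did not pass (0.95 and 0.26, adjusted p = 0.323, for Aqp7 and 0.11 and 0.62, adjusted p = 0.757, for Car3). Adipoq, with at most 2 counts in any library, was not tested.

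The same genes can be read in the CMV-Cre KO females, in which Cre was not restricted to hepatocytes and which share the WT mice, so the values are set side by side only. Kdm5b was at 24.8, 16.4 and 14.8 CPM in KO mice 1, 2 and 3. Of the heat shock genes that fell in HepKO mice, Hspa1b was at 8.16, 6.59 and 4.95 CPM, Dnajb1 at 17.4, 20 and 18.8 CPM, Bag3 at 28.5, 30.1 and 29 CPM, Dnaja1 at 243, 178 and 176 CPM, Hsph1 at 68.1, 18 and 13.7 CPM, Hspa8 at 1880, 1330 and 1060 CPM and Chordc1 at 37, 20.1 and 14.6 CPM. KO mouse 1 had more Hsph1, Hspa8 and Chordc1 than the other KO mice, within or above the range of the WT mice. Nfya was at 10.2, 9.49 and 8.95 CPM and Ints6 at 8.52, 12.3 and 10.8 CPM. Per1 was at 42.2, 24.8 and 24 CPM, Mt2 at 396, 68.5 and 123 CPM and Cyp7a1 at 23, 73.9 and 63.1 CPM (scaled over the 9 libraries of WT, KO and HepKO females).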

How the data were processed

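Liver RNA of 6 female mice was analysed, 3 HepKO and 3 WT, grouped by the treatment in the labels. Reads had been aligned to GRCm38.p6 with HISAT and Bowtie2 per the submitters' processing notes, with versions and the counting tool not given in the sources used here. The authors deposited expected counts per gene, which need not be whole and were rounded, and FPKM values per gene, used for levels per length and for 1 alternative. Genes were filtered with filterByExpr (minimum count 10), scaled by TMM and tested with edgeR 4.0.16 (quasi-likelihood, R 4.3.3, two-sided, Benjamini-Hochberg threshold 0.05), with DESeq2 1.42.0 and limma 3.58.1 (log2 of FPKM plus a pseudocount of 1) as alternatives. The script was tested on simulated data. Labels do not say that mice came from separate litters or days, so p-values measure the spread between these mice, and depth intervals were not needed for means over mice. An exact permutation test of 3 against 3 cannot give a p below 0.1.

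The members and gene lists were chosen with earlier results of these data known, so list counts are descriptions and no set test was run. Named genes were the Kdm5 genes, up to 12 per direction and fit with the largest log2 fold change among passing genes whose groups were separate and whose average log2 CPM reached 2 (remaining places filled by the smallest unadjusted p at a log2 fold change of at least 1), up to 4 per list and fit by unadjusted p, and genes of oxysterol, LXR, fibrosis and inflammation biology. Some list members are given for their role. Promoter sequences are RefSeq (GRCm38.p6), 250 bases before the start. The study's methods give a longer WDA period than the 8 weeks of the labels. The other libraries of the series served only to estimate the spread in 2 alternatives and for the CMV-Cre values. Some genes that the naming rule picked are not reported here.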

Additional observations from a re-analysis of the deposited data

How the results depend on the processing

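With all 6 libraries the 0 calls became 230 with DESeq2, 7 without a filter, 8 with at least 10 counts in every library, 4 with the spread shared with the CMV-Cre KO females and 49 with the spread of the whole series, while RLE, upper quartile and unscaled totals, the 2-fold condition and limma kept 0. Leaving out 1 library gave between 0 and 349 calls, the 349 being without WT mouse 7. Without that mouse the 349 calls became 620 with DESeq2, 87 with the spread shared with the CMV-Cre KO females, 5 with that of the whole series, 136 with limma on FPKM and 137 over 2-fold; leaving out a further library gave 85 to 491 calls, and where this left 1 WT mouse that mouse was assumed to vary like the HepKO mice. The causes were not tested. Library totals without factors moved the median of all genes with 6 libraries from -0.02 to -0.18; without WT mouse 7 the split of 191 higher and 158 lower became 181 and 172 with upper quartile scaling. Kdm5b kept its sign throughout. Across named genes 3315 values kept their direction and side of the threshold, 331 lost a call, 205 gained one and 59 reversed; of the list medians 1308 were within the spread and 67 moved. No paired analysis was possible because the mice of the groups carry different numbers.

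Among values fitted with all 6 libraries, log2 fold changes that turned sign were Apoa4 to -0.008, Apoc1 to -0.075, Egr1 to -0.11 and Hspd1 to -0.12 under unscaled totals, Apoc1 to -0.020, Aqp7 to -0.005, Egr1 to -0.14, Hspd1 to -0.12 and Myc to 0.071 under limma on FPKM, Apoc1 to -0.001 under spread shared with CMV-Cre KO females and Apoc1 to -0.024 and Hspd1 to -0.029 under upper quartile scaling. Leaving out 1 library moved Abcg1 from -0.64 to 0.43, Aldh2 from -0.12 to 0.37, Apoc1 from -0.30 to 0.21, Aqp7 from -0.11 to 0.95, Col1a1 from -2.58 to 0.80, Dbp from -0.10 to 2.10, Egr1 from -0.43 to 0.33, Fasn from -0.026 to 0.46, Fosl2 from -0.51 to 0.013, Hspd1 from -0.077 to 0.13, Mup20 from -0.99 to 0.012, Mup3 from -0.29 to 0.70, Myc from -0.66 to 1.24, Nr1h3 from -0.20 to 0.086, Per3 from -0.94 to 0.073, Tbx3 from -0.60 to 0.15, Tgfb1 from -0.52 to 0.47, Tm7sf2 from -0.63 to 0.061 and Tsc22d3 from -0.33 to 0.20. Among values fitted with WT mouse 7 left out, log2 fold changes that turned sign were Dbp to 0.57 under limma on FPKM. Leaving out 1 further library moved Apoe from -0.039 to 0.12, Car3 from -0.16 to 0.44, Ccr2 from -0.95 to 0.58, Dbp from -0.91 to 2.46, Egr1 from -0.24 to 0.53, Fasn from -0.18 to 0.14, Fkbp5 from -0.008 to 0.74, Fosl2 from -0.038 to 0.044, Hspd1 from -0.18 to 0.027, Mmp9 from -0.47 to 0.062, Mup20 from -0.25 to 0.33 and Per3 from -1.28 to 1.13. Apoa4, Myc, Tbx3 and Tm7sf2, among these genes, were called without WT mouse 7.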
